A study of Mus musculus with 12 samples.

Results

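The type I acyl-CoA thioesterases Acot1, Acot2, Acot3, Acot4, Acot5 and Acot6 were followed in the livers of female and male C57BL/6J mice fed chow (Research Diets) for 4 weeks, either plain or with added simvastatin, a statin that blocks the enzyme HMG-CoA reductase. There were 3 livers in each of the 4 groups, which are called chow or statin after the diet and female or male after the sex, 12 livers in all, each from a different mouse that was 8 to 10 weeks old when the diets began. The dose was 0.1 g/kg, which the sample labels refer to body weight and the methods to food weight, so the basis of the dose is uncertain. The labels also name 1 diet formulation for chow and statin alike, which the methods name for the statin diet only, so the groups here rest on the labels' statement of diet and simvastatin. The 6 genes were looked up by symbol among the 48526 genes of the CPM table and selected on their measured fold changes between statin and chow in females and in males, so these fold changes are given as a description and without a test. Of the 6 genes, 5 were among the 11968 genes that passed the filter on low counts, and Acot5 was not.

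Acyl-CoA thioesterases hydrolyse fatty acyl-CoA to the free fatty acid and coenzyme A, the reverse of what acyl-CoA synthetases do. The type I enzymes divide the work by compartment. Acot1 is cytosolic, Acot2 is mitochondrial, and Acot3, Acot4, Acot5 and Acot6 are peroxisomal enzymes with different preferred acyl chains. In liver the family is known for its rise in fasting and after activators of PPAR-alpha, the nuclear receptor that switches on fatty acid oxidation.

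Depth ranged from 46066381 to 60419223 counts per liver, and 3 counts, taken here as the limit that a count of 0 allows, corresponded to 0.0497 to 0.0651 CPM. Such limits cover counting error only. All 6 hepatocyte markers were detected and summed to between 82470 and 156882 CPM, while adipocyte and pancreas markers summed to at most 2.65 and 1.89 CPM. Lymphocyte markers (3 of 3 detected) summed to 12.9 to 17.2 CPM in female chow and 18.3 to 25.4 CPM in female statin, 8.38 to 16.0 CPM in the males, and their part in the results was not tested. The other lists of liver cells overlapped between female chow and female statin, with hepatocyte markers at 103355 to 134221 CPM on chow and 120948 to 156882 CPM on statin. In bulk tissue, fewer cells of a type and less RNA per cell cannot be told apart.

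The 6 genes lay head to tail on the plus strand of chromosome 12 (GRCm38, GENCODE vM21), within chr12:83987861-84111349, a span of 123489 bases. In the deposited tables they carry the Ensembl identifiers ENSMUSG00000072949.5 (Acot1), ENSMUSG00000021226.7 (Acot2), ENSMUSG00000021228.14 (Acot3), ENSMUSG00000052392.4 (Acot4), ENSMUSG00000042540.12 (Acot5) and ENSMUSG00000043487.3 (Acot6). Their order was Acot2 (83987861 to 83993873), Acot1 (84009490 to 84018371), Acot4 (84038379 to 84048601), Acot3 (84052144 to 84060402), Acot5 (84069325 to 84076020) and Acot6 (84100654 to 84111349). The coding sequences were closely alike. Acot1 and Acot2 had 95.6% identical bases over 1236 aligned bases, and the other 14 pairs had between 75.3% and 85.8%. Of the 50-base stretches of each gene's transcripts, 18.4% for Acot1, 27.6% for Acot2, 7.57% for Acot3, 4.17% for Acot4, 22.1% for Acot5 and 3.52% for Acot6 also occurred in another member. With every other annotated gene counted, the shares were 19.2%, 27.7%, 21.3%, 13.4%, 22.1% and 3.79% in the same order. A read that falls wholly in such a stretch fits more than 1 gene by itself, though its mate in the sequenced pair may lie outside. How such reads were treated in counting was not given in the sources used here. Exons of Acot3 and Acot4 shared 9.08% and 9.21% of their lengths with 4732463B04Rik on the other strand, which had 4 to 61 counts per liver. They also overlapped Gm49366, a same-strand gene model of the annotation used here that joins both and was not analysed here, by 11.5% and 0.494% of their lengths.

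The promoters, in contrast to the coding sequences, differed in their letters from member to member. Of the 250 bases before the start, as given by RefSeq for GRCm38.p6, 5 of the 6 members had an entry (Acot6 had none), and any pair of these had between 53.4% and 62.7% identical bases after alignment with gaps. The promoters of the 4 members with the most reads are shown because these members carried the differences described below. Capitals mark CCAAT (or its complement ATTGG), which was present in all 5 promoters, and a 13-base stretch before Acot4 that differed by 2 letters from a DR1, a pair of AGGTCA half-sites separated by 1 base.
Acot2 (chr12:83987611-83987860, plus strand): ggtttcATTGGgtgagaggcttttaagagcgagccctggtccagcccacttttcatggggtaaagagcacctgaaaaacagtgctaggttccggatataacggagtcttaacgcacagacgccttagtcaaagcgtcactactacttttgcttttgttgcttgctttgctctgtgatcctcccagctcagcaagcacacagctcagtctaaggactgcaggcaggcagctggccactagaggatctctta
Acot1 (chr12:84009252-84009501, plus strand): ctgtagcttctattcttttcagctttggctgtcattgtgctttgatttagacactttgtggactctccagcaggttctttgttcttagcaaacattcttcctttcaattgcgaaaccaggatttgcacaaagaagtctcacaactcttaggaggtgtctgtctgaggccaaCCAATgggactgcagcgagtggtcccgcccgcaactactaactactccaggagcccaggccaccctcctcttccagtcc
Acot4 (chr12:84038129-84038378, plus strand): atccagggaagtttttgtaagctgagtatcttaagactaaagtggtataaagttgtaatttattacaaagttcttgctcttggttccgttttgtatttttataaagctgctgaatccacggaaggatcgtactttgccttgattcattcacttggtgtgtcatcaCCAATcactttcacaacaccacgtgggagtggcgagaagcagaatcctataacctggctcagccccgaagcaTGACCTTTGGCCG
Acot3 (chr12:84051894-84052143, plus strand): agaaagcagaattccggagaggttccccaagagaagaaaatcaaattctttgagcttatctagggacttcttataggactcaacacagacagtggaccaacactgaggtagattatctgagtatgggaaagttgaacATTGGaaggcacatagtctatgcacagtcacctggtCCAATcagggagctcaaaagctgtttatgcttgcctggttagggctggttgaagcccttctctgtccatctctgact

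DR1 is the kind of element to which PPAR-alpha is known to bind with its partner RXR. Both strands were searched. CCAAT was found in 34.5% of 27025 promoter windows of this length and a DR1 with at most 2 mismatches in 3.18%. Acot2 and Acot5 came within 3 mismatches of a DR1, which 21.0% of all windows did, and Acot1 and Acot3 within 4, which 74.3% did. The single half-site AGGTCA occurred before Acot4, inside the stretch in capitals, and before Acot5, against 13.8% of all windows. The TATA box TATAAA occurred before Acot4 alone among the 5, against 12.97% of all windows. A match is a run of letters and not evidence of binding.

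Levels are given as TMM-normalized CPM, counts scaled to library size and then between livers by edgeR's trimmed mean of M values. Acot1, the cytosolic member, was at 18.2, 9.98 and 11.7 CPM in the 3 female chow livers and at 44.7, 53.2 and 78.5 CPM in the 3 female statin livers. The male chow livers had 22.6, 20.0 and 18.2 CPM, and the male statin livers 19.7, 13.2 and 11.97 CPM. Every female statin liver thus lay above every female chow liver, while the male groups overlapped, with the higher mean on chow. The log2 fold change of statin against chow was 2.14 (SE 0.27) in females and -0.44 (SE 0.26) in males, where it was -0.69 without male statin replicate 1.

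Acot2, the mitochondrial member and the closest copy of Acot1, was lower in level. The female livers had 7.37, 4.83 and 7.31 CPM on chow, beside 18.9, 17.0 and 25.97 CPM on statin. The male livers had 3.16, 4.70 and 4.21 CPM on chow, next to 2.91, 3.11 and 3.41 CPM on statin. Again the female groups were apart and the male groups overlapped. The log2 fold change was 1.66 (SE 0.22) in females and -0.35 (SE 0.22) in males, where it was -0.23 without male chow replicate 2.

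Acot3, a peroxisomal enzyme for long-chain acyl-CoA, was the most abundant member in females. Female livers measured 81.0, 98.8 and 172 CPM with chow alone, and 255, 390.2 and 433 CPM with statin. Male livers measured 43.6, 39.9 and 38.1 CPM with chow alone, and 39.9, 33.3 and 63.5 CPM with statin. All 6 female livers were above all 6 male livers, the female diets did not overlap, and 1 male statin liver, replicate 3, was above the rest of the males. The log2 fold change was 1.62 (SE 0.31) in females and 0.17 (SE 0.30) in males, where it was -0.15 without male statin replicate 3 and 0.35 without male statin replicate 2.

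Acot4, the peroxisomal enzyme known to act on succinyl-CoA and other dicarboxylic acyl-CoA, had the smallest fold change of the 4 abundant members. Among females the chow livers reached 52.9, 70.2 and 83.5 CPM and the statin livers 130.0, 131 and 173 CPM. Among males the chow livers reached 51.1, 54.3 and 53.5 CPM and the statin livers 48.1, 49.9 and 65.9 CPM. The log2 fold change was 1.07 (SE 0.18) in females and 0.05 (SE 0.18) in males, where it was -0.11 without male statin replicate 3, the same liver that was high for Acot3.

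Acot5 and Acot6, the last pair of the cluster, were low. Acot5 had 1, 0 and 2 counts in female chow and 7, 5 and 2 counts in female statin, and 0 counts in each of the 6 male livers, which allows up to 0.0615 CPM in any one of them. In females the Acot5 levels on chow and on statin overlapped at these low counts. Neither a test nor a fold between the diets is given for Acot5. Acot6 read 2.88, 1.36 and 1.59 CPM in chow-fed females, against 3.16, 2.73 and 2.05 CPM with statin. In chow-fed males it read 0.672, 1.85 and 1.03 CPM, against 1.05, 2.34 and 1.17 CPM with statin. The diets overlapped in both sexes. Its log2 fold change was 0.44 (SE 0.41) in females, where it was 0.85 without female chow replicate 1 and 0.25 without female chow replicate 2. In males it was 0.35 (SE 0.43), from -0.10 without male statin replicate 2 to 0.83 without male chow replicate 2, and 0.07 without male chow replicate 1.

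**Figure D1:**
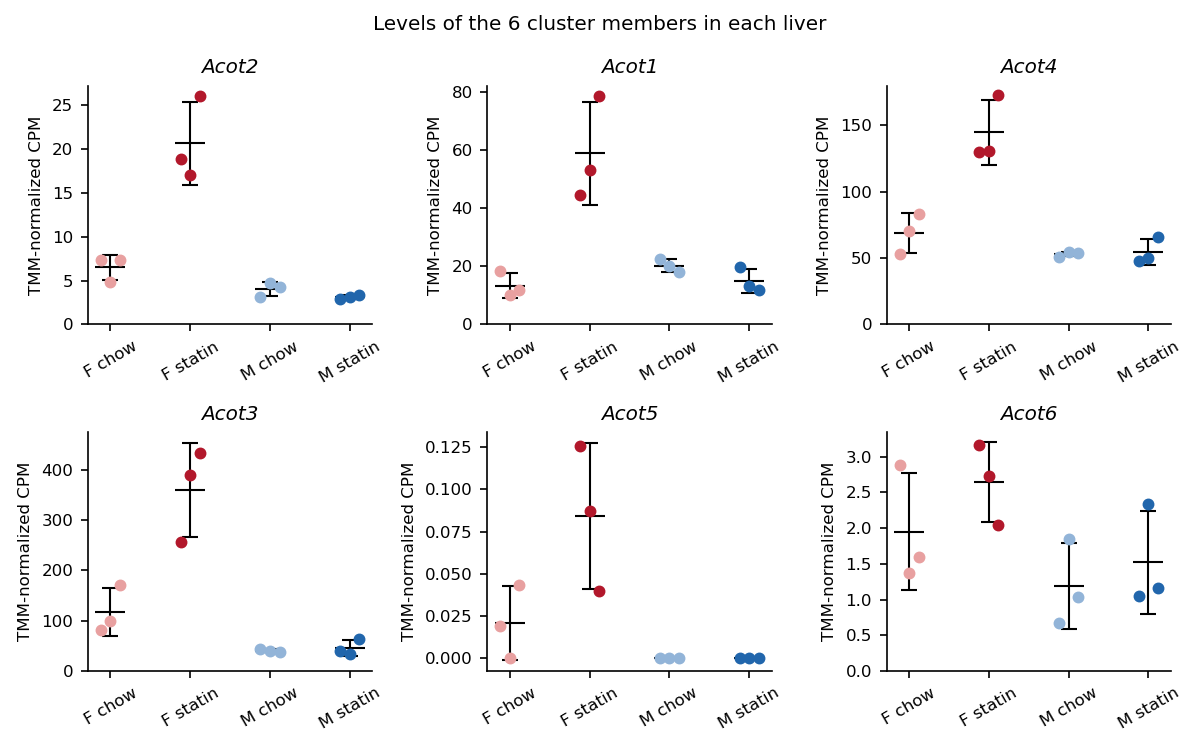
Level of each member (vertical axis, TMM-normalized CPM, from 0) in each liver (points) of female (F) and male (M) mice on chow or statin, with the mean and SD of 3 livers in black. The female statin livers stand above all others for Acot2, Acot1, Acot4 and Acot3, with Acot1 at 44.7 to 78.5 CPM against at most 22.6 CPM elsewhere, while Acot6 overlaps and Acot5 stays under 0.126 CPM.

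In females 4 of the 6 members (Acot1, Acot2, Acot3 and Acot4) had every statin liver above every chow liver, and in males 0 of 6 had. Over all 11968 genes 6.03% were separated in this way in females and 3.64% in males, and 4.30% of genes in males had every statin liver below every chow liver, which no member had. Since these contrasts chose the members, nothing is read from the counts. The median log2 fold change of the 5 fitted members was 1.62 in females and 0.05 in males, beside 0.01 and 0.00 over all genes. Over all genes, edgeR's quasi-likelihood test called 12 genes in females (0.10%) and 0 genes in males (0.0%) at an adjusted p of 0.05. At an unadjusted p of 0.05 the males had 234 genes, and DESeq2 called 4 genes in males.

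On chow, where no drug was given, the levels of the sexes also stood apart for some members. The chow livers are the reference of both statin contrasts and so entered the choice of the members, and the values are again a description without a test. Acot3 was higher in each female chow liver than in any male chow liver, with a log2 difference (female against male) of 1.53 (SE 0.31). Acot2 was likewise higher in each female liver, by 0.69 (SE 0.22). Acot4 had a difference of 0.38 (SE 0.18) with overlapping livers, which was 0.21 without female chow replicate 3. Acot1, alone with the opposite sign, had -0.60 (SE 0.27), which was -0.91 without female chow replicate 1. Acot6 had 0.71 (SE 0.42), which was 0.31 without female chow replicate 1, 0.43 without male chow replicate 1 and 1.19 without male chow replicate 2. Every female chow liver was above every male chow liver for 2 members, Acot2 and Acot3, and for 18.5% of all genes. The median log2 difference of the 5 fitted members was 0.69, beside -0.01 over all genes, and it was 0.43 without male chow replicate 1. On chow the summed markers of Kupffer cells (4 of 4 detected) were at 391 to 504 CPM in females and 214 to 342 CPM in males, those of sinusoidal endothelium (4 of 4) at 242 to 261 and 170.0 to 211 CPM, and those of stellate cells (4 of 4) at 267 to 334 and 170.1 to 197 CPM. Blood markers (3 of 3) were lower in the females, at 148 to 162 against 204 to 229.9 CPM, and the part of these cells in the sex difference was not tested.

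On statin the log2 differences between the sexes were larger than on chow for Acot1, Acot2, Acot3 and Acot4, in a contrast whose livers also entered the choice. For Acot6 the difference was 0.80 on statin and 0.71 on chow, and which of them was larger turned with 1 liver left out. The log2 difference (female against male) was 2.98 (SE 0.32) for Acot3, 2.71 (SE 0.23) for Acot2, 1.97 (SE 0.27) for Acot1, 1.41 (SE 0.19) for Acot4 and 0.80 (SE 0.42) for Acot6, where it was 1.26 without male statin replicate 2, and the median over all genes was -0.01. Every female statin liver was above every male statin liver for 5 members, all except Acot6, and for 11.1% of all genes. For Acot5 this separation rests on 2 to 7 counts against 0. Hepatocyte markers (6 of 6 detected) summed to 120948 to 156882 CPM in the female statin livers and 87159 to 100697 CPM in the male ones, Kupffer cell markers (4 of 4) to 336 to 641 and 216 to 276 CPM, and lymphocyte markers (3 of 3) to 18.3 to 25.4 and 8.38 to 13.3 CPM. The part of these cells in the differences was not tested.

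Acot1 and Acot2, and likewise Acot3 and Acot4, were in different proportions in the sexes. The other neighbours in the cluster, such as Acot1 and Acot4, were not compared in this way. The Acot1 counts were 1.60 to 3.14 times the Acot2 counts over the 6 female livers and 3.51 to 7.17 times over the 6 male livers. The Acot3 counts were 1.41 to 2.98 times the Acot4 counts in females and 0.667 to 0.964 times in males. In neither ratio did the sexes overlap. Within a sex, the Acot1 to Acot2 ratio overlapped between diets, at 1.60 to 2.47 in female chow and 2.37 to 3.14 in female statin, and at 4.25 to 7.17 in male chow and 3.51 to 6.77 in male statin. The part of shared reads in these ratios was not tested.

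To compare levels between genes, CPM was divided by the exonic length of each gene, from 1519 bases for Acot5 to 6674 bases for Acot4. On this per-length scale the cluster summed to 51.1 ± 15.7 CPM per kb in females on chow and 151 ± 35.1 on statin, and in males to 26.9 ± 0.984 on chow and 26.9 ± 5.57 on statin (mean and SD, n = 3). Acot3 made up most of the sum in females. Its share per length was 65.4% ± 6.70 in female chow and 68.9% ± 4.17 in female statin, and in males 43.8% ± 1.79 on chow and 48.3% ± 6.54 on statin (SD, n = 3). Acot4 followed with 20.6% ± 2.90 and 14.6% ± 2.23 in females and 29.5% ± 1.71 and 30.6% ± 2.62 in males, on chow and statin respectively (SD, n = 3). The share of Acot1 was 7.25% ± 3.88 and 9.87% ± 1.06 in females and 19.2% ± 1.52 and 14.7% ± 5.33 in males (SD, n = 3). Acot2 held 5.42% to 6.82% on average in all 4 groups. Thus the order of levels was Acot3, Acot4, Acot1, Acot2, Acot6 and Acot5 in each group by the means. Within single livers the order also held, except in female chow replicate 3, where Acot2 (3.33 CPM per kb) was above Acot1 (2.99 CPM per kb). The ranges over different livers overlapped for Acot1 and Acot2 in female chow and in female statin, for Acot4 and Acot1 in female statin, and for Acot3 and Acot4 in male statin. The composition by share depends on the annotated exons, since the long exonic model of Acot4 lowers its per-length level.

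**Figure D2:**
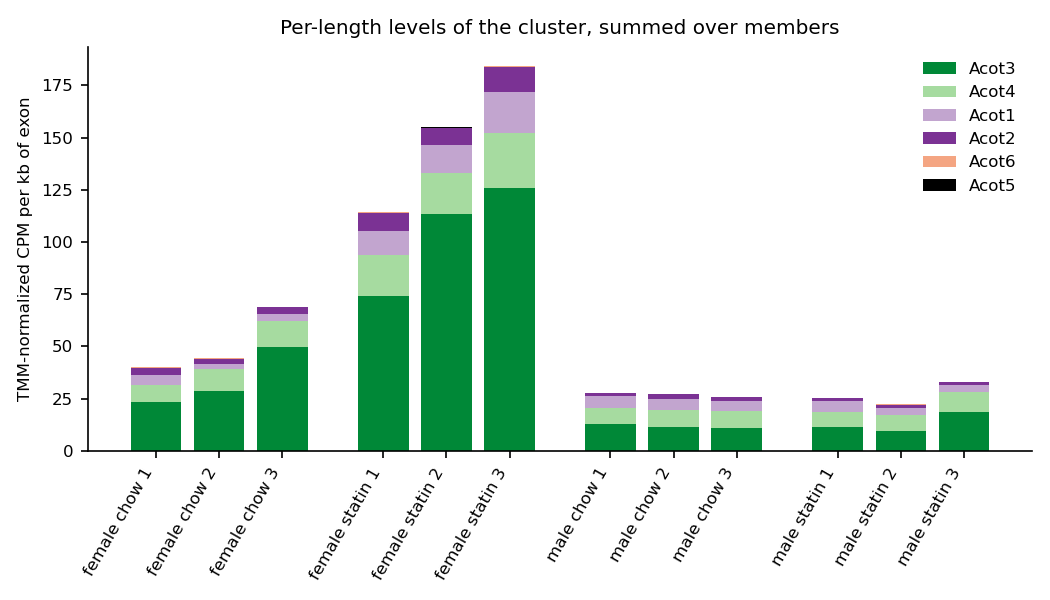
Level per exonic length (vertical axis, TMM-normalized CPM per kb, from 0) of each member, stacked for each of the 12 livers. The female statin livers reach 114 to 184 CPM per kb against 40.0 to 69.0 in female chow and at most 33.1 in males, and the Acot3 segment fills more of the female bars.

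Within groups the members did not all vary together. The deviations of each liver from its group mean on the log2(CPM + 1) scale were compared over the 12 livers, which leaves out the differences between groups, and the livers share their library and scaling across genes. Acot3 and Acot4, which lie next to each other and share an antisense neighbour, had r = 0.84, and female chow replicate 3, female statin replicate 3 and male statin replicate 3 were the highest of their groups in both. Acot1 and Acot2 had r = 0.41. Acot1 had r = -0.06 with Acot3 and -0.26 with Acot4, and Acot6 had r = -0.57 with Acot3 and -0.51 with Acot4. With 3 livers per group these are descriptions of 12 livers only.

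The genes nearest in pattern were found by Pearson correlation with the mean log2(CPM + 1) of the 5 fitted members. Over the 12 livers, group differences included, the 5 highest were Bhlhb9 (r = 0.97), Cerkl, a ceramide kinase-like protein (r = 0.96), Slc16a7, the monocarboxylate transporter MCT2 (r = 0.96), Gypc, glycophorin C (r = 0.94), and Rab30, a Golgi small GTPase (r = 0.94). All 5 were higher on average in female statin than in the other groups, with Slc16a7 at 193 CPM against 103 to 125 CPM and Rab30 at 33.7 CPM against 11.7 to 14.7 CPM. The members were selected on their statin fold changes, so a high r over the 12 livers favours this pattern, and nothing is read from it. When only the deviations from the group means were used, the 5 highest were others: A730017L22Rik (r = 0.95), Iscu, an iron-sulfur cluster scaffold (r = 0.93), Slc25a39, a mitochondrial glutathione carrier (r = 0.92), Cfap97 (r = 0.90) and Dnaja1, an HSP40 co-chaperone (r = 0.90). Each had a log2 fold change of at most 0.32 in females. These 5 were picked as the highest in a search over many genes, with the deviations of only 12 livers. Whether their r exceeded what such a search gives by itself was not tested, and nothing is read from it. The members themselves had r = 0.85 (Acot1), 0.99 (Acot2), 0.96 (Acot3), 0.96 (Acot4) and 0.65 (Acot6) with their own mean over the 12 livers, and on the deviations alone r = 0.45 (Acot1), 0.89 (Acot2), 0.60 (Acot3), 0.52 (Acot4) and 0.07 (Acot6).

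The genes around the cluster were examined in the same fits. Of 29 annotated genes examined within 300 kb of either end, 9 passed the filter on low counts: Papln, Numb and Riox1 before Acot2, and Dnal1, Elmsan1, Ptgr2, Zfp410, Coq6 and Entpd5 after Acot6. Their log2 fold changes lay between -0.42 (Papln) and 0.32 (Dnal1) in females and between -0.14 and 0.13 in males. In either sex, and between the sexes on chow, 0 of 9 passed edgeR's test. Over all genes 0.10% passed in females, 0.0% in males and 10.4% between the sexes on chow, so nothing is read from this count. Dnal1, a dynein light chain gene that starts just after Acot6, averaged 1.47 CPM in chow-fed females, against 1.84 CPM with statin. Entpd5, an ectonucleotidase of the secretory pathway, was the 1 neighbour of 9 whose female statin livers were all above the female chow livers, which 6.03% of all genes had, at 291 against 236 CPM on average (adjusted p = 0.631, edgeR).

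**Figure D3:**
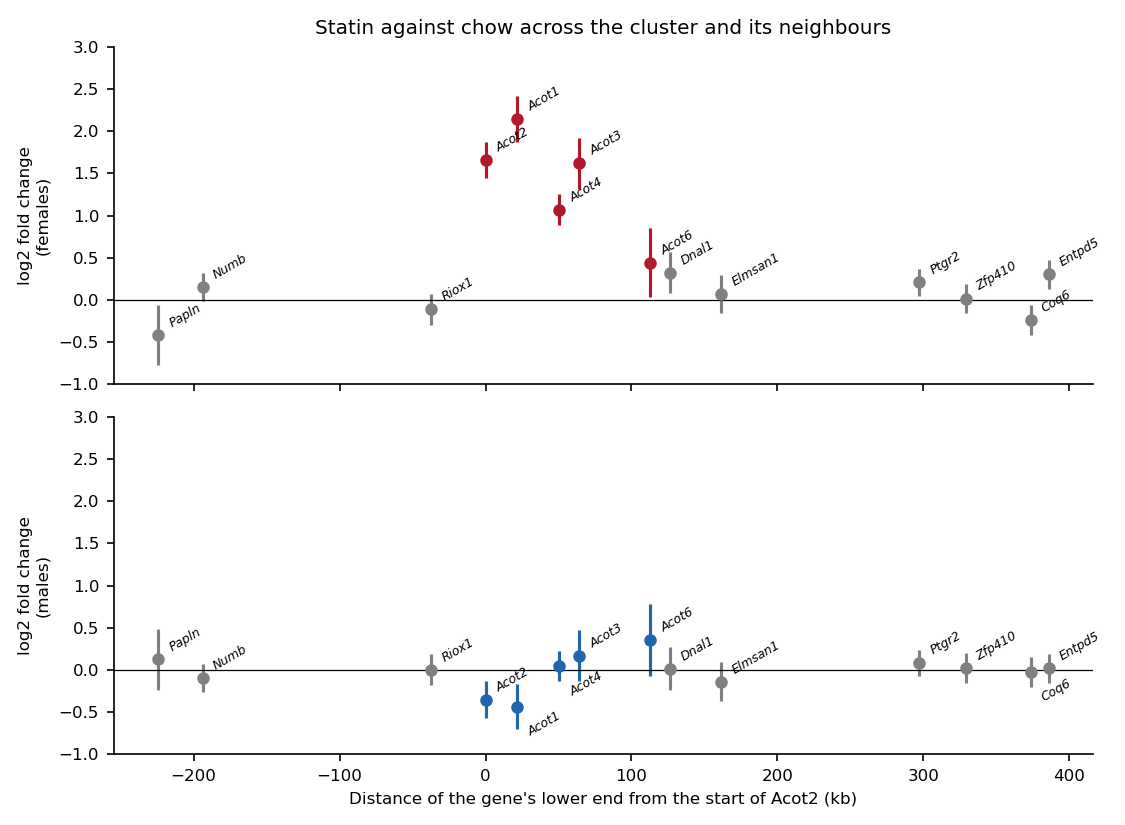
Log2 fold change of statin against chow with its standard error (vertical axis) in females (upper panel, red members) and males (lower panel, blue members), by distance in kb from the start of Acot2, for the 5 fitted members and 9 neighbours (grey). Acot2, Acot1, Acot4 and Acot3 stand at 1.07 to 2.14 in females while the neighbours stay within -0.42 to 0.32.

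Thioesterases encoded elsewhere in the genome were compared as a list of 12, of which 10 passed the filter on low counts (Acot10 and Them5 did not). In females 0 of 10 passed edgeR's test in either direction, and 3 had an unadjusted p under 0.05, all of them higher on statin, beside 1256 of 11968 genes in either direction. DESeq2 called 1 of the 10, and 270 of all 11968. Their median log2 fold change was 0.24 in females and 0.00 in males, beside 0.01 and 0.00 over all genes. Acot12, the cytosolic acetyl-CoA thioesterase, averaged 88.6 ± 6.50 CPM in chow-fed females and 155 ± 27.1 CPM with statin (SD, n = 3). Its log2 fold change was 0.81 (SE 0.13), with an adjusted p of 0.0504 that was under 0.05 in 5 of the other settings, DESeq2 and limma among them, and without female statin replicate 1 or 2. Males averaged 176 ± 7.02 CPM without and 158 ± 3.46 CPM with statin (SD, n = 3), and the log2 fold change was -0.15 (SE 0.13, adjusted p = 1.00, edgeR). Acot8, the peroxisomal thioesterase outside the cluster, had a log2 fold change of 0.58 (SE 0.18, adjusted p = 0.250, edgeR) in females, and Acnat1, an acyl-CoA to amino acid transferase of related sequence, 0.54 (SE 0.24, adjusted p = 0.460, edgeR). The 3 with negative values were Acot7 (-0.26), Acot11 (-0.19) and Acot9 (-0.16), with adjusted p-values from 0.609 to 0.937. In males 0 of 10 passed edgeR's test, with 0 at an unadjusted p under 0.05, and DESeq2 called 0.

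**Figure D4:**
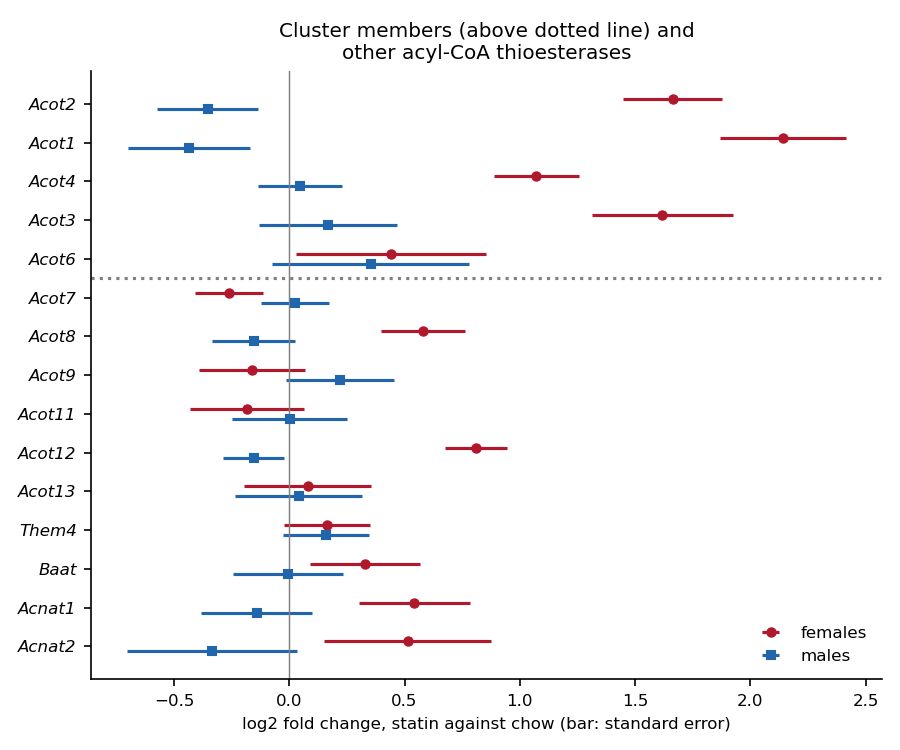
Log2 fold change of statin against chow (horizontal axis, bars are standard errors) in females (red circles) and males (blue squares) for the 5 fitted members, above the dotted line, and 10 other thioesterases below it. The female values of Acot2, Acot1, Acot4 and Acot3 lie between 1.07 and 2.14, above the 0.81 of Acot12, the highest of the others, and the male values of all 15 genes lie between -0.44 and 0.35.

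The opposite step, the activation of fatty acids to acyl-CoA, and the making and breaking of coenzyme A were followed with 33 genes, of which 26 passed the filter on low counts. In females 1 of 26 was called, as higher on statin, and 9 had an unadjusted p under 0.05, 7 higher and 2 lower, beside 12 and 1256 of all 11968 genes. The called gene was Slc27a1, the fatty acid transporter and synthetase FATP1, which rose from 5.03 ± 0.995 to 10.97 ± 1.51 CPM (SD, n = 3), or by 1.13 on the log2 scale (SE 0.17, adjusted p = 0.0382, edgeR). This call was lost in the fits without any one of 9 livers, every one except female chow replicate 3 and female statin replicates 1 and 2. Vnn1, a pantetheinase that breaks down pantetheine from coenzyme A, had a log2 fold change of 1.04 (SE 0.25, adjusted p = 0.127, edgeR), and Slc27a2, the very long-chain synthetase FATP2, 0.96 (SE 0.25, adjusted p = 0.164, edgeR). Negative values with the smallest p were those of Acsl5 (-0.63), Acss2, the cytosolic acetyl-CoA synthetase (-1.14), and Nudt7, a peroxisomal coenzyme A hydrolase (-0.48), with adjusted p-values from 0.412 to 0.717. In males 0 of 26 passed, 2 had an unadjusted p under 0.05 and DESeq2 called 0. The median of the list was 0.12 in females and -0.08 in males.

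PPAR-alpha and genes known as its targets were followed with a list of 31, all of which passed the filter on low counts, and one of which, Vnn1, is also in the list above. Like the lists above, it was chosen with earlier results of these data known, and its genes were measured in the same livers. The counts are therefore a description. In females 30 of 31 had a positive log2 fold change and 19 had an unadjusted p under 0.05, all of them higher on statin, beside 1256 of 11968 genes in either direction. In all, 1 of 31 passed edgeR's test after adjustment, beside 12 of all 11968 genes, and DESeq2 called 12 of 31, beside 270 of all 11968. It was Pex11a, a peroxisome division factor, which rose from 71.2 ± 4.31 to 141 ± 24.5 CPM (SD, n = 3), or by 0.99 on the log2 scale (SE 0.16, adjusted p = 0.0382, edgeR). The call was lost in the fits without any one of 10 livers, every one except female statin replicates 1 and 2. Slc25a20, the carnitine and acylcarnitine carrier, had 0.94 (SE 0.18, adjusted p = 0.0951, edgeR). Creb3l3, a liver transcription factor of fasting, had 0.69 (SE 0.14, adjusted p = 0.0951, edgeR). Ppargc1a, a coactivator of PPAR-alpha, was the 1 gene of the list with a negative value, -0.23 (adjusted p = 0.815, edgeR).

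The median log2 fold change of the PPAR-alpha list was 0.66 in females and -0.19 in males, where 6 of 31 were positive, 0 passed edgeR's test, 2 had an unadjusted p under 0.05 and DESeq2 called 0. Every female statin liver was above every female chow liver for 16 of 31 genes, against 6.03% of all genes, and every male statin liver was below every male chow liver for 4 of 31, against 4.30%. These counts too are a description, since the list was chosen with earlier results known. The largest female log2 fold change of the list was that of Cyp4a31, a fatty acid omega-hydroxylase, at 1.98 (SE 0.40, adjusted p = 0.0956, edgeR), beside 2.14 for Acot1, 1.66 for Acot2 and 1.62 for Acot3. On chow the list and the cluster had medians of opposite sign between the sexes. The list median (female against male) was -0.33, beside -0.01 over all genes, and the members had a median of 0.69. edgeR's test called 2 of the 31 genes as higher in females and 8 as lower. Over all genes it called 10.4%, with 5.96% higher in females (713 higher and 537 lower, or 565 and 653 when scaled by library size alone).

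**Figure D5:**
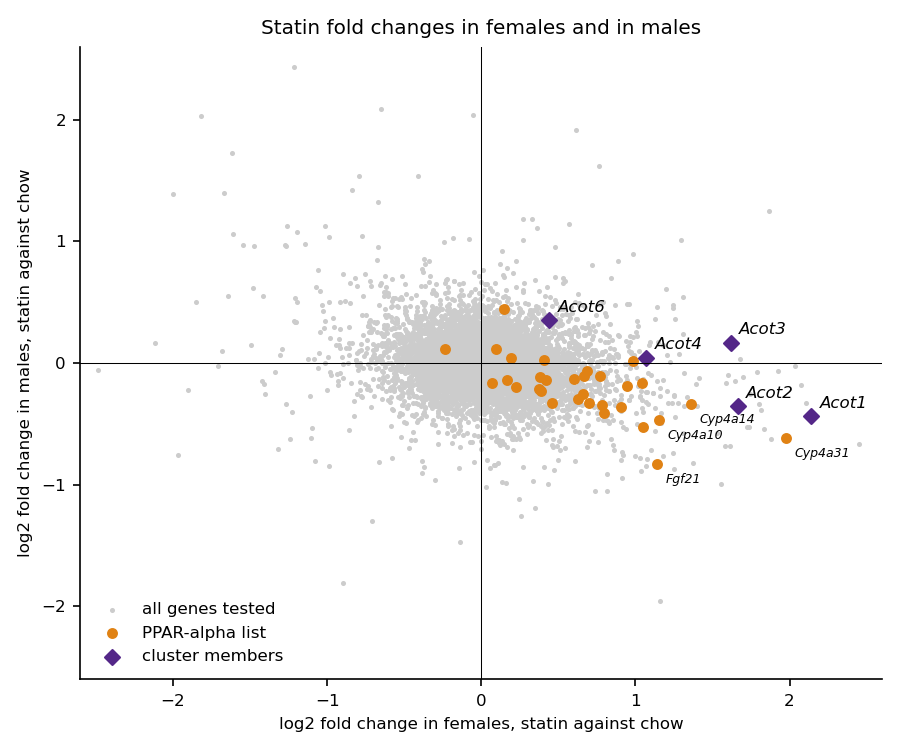
Log2 fold change of statin against chow in females (horizontal axis) and in males (vertical axis) for the 5 fitted members (purple diamonds), the 31 genes of the PPAR-alpha list (orange) and all 11968 genes tested (grey, with 6 genes outside the plotted range). The orange points lie mostly to the right of 0 and below it (medians 0.66 and -0.19), and Acot1, Acot2 and Cyp4a31 are the marked points farthest to the right.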

How the data were processed

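RNA was isolated from liver with trizol, and strand-specific libraries of poly(A) RNA were sequenced as 50-base pairs. The authors aligned the reads to GRCm38 with STAR 2.4.1a, counted them per gene with HTSeq and used edgeR 3.28.1, per the labels and the methods. The strand setting of the counting was not given in the sources used here. The authors deposited a table of CPM for 48526 genes and a table described as normalized, whose values are raw counts of 11968 genes above 1 CPM in at least 6 livers. The deposited CPM gave back whole reads for 100% of values (within 0.01 of a read), and these matched the count table.

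The counts were fitted with the quasi-likelihood model of edgeR 4.0.16 (R 4.3.3, TMM normalization) with 12 livers and 4 groups in 1 fit. Tests were two-sided with Benjamini-Hochberg adjustment over all 11968 genes, and standard errors were taken as the size of the log2 fold change over the root of the F statistic. Each p-value sets a difference between groups against the spread between livers of a group, with 3 livers per group. That spread was estimated over all 12 livers and moderated across genes, so a contrast also depends on livers outside it. Alternatives were library size alone, DESeq2 1.42.0 and its size factors, limma 3.58.1 on log2(CPM + 1), all 26304 genes with a count, a filter of 5 CPM, the 2 groups of a contrast alone, the replicate number as a block and each liver left out. The planned tests of the members between the sexes are not reported, since the members were chosen on those livers. Positions, lengths and coding sequences are from GENCODE vM21 of GRCm38 (the authors name another release), and 99.0% of identifiers in the CPM table matched a symbol. Alignments used Biopython 1.88, and figures matplotlib 3.10.9. The members and lists were chosen with earlier results of these data known. Of each list the text names the called genes and, by smallest p in females, up to 3 with positive and 3 with negative values. Cyp4a31 was chosen after its values were seen. For likeness it names the 5 genes with the highest r, and for neighbours those within 300 kb, 1 of which is not reported here.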

Additional observations from a re-analysis of the deposited data

Results flagged for a closer look

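The 5 fitted members and the lists of 10, 26 and 31 fitted genes were searched for groups apart in opposite directions in the sexes. Vnn1 is in more than 1 list. Acot12, Slc27a1, Fgf21, Acadm and Hadhb had every female statin liver above every female chow liver and every male statin liver below every male chow liver. Over all 11968 genes 75 (0.627%) had this separation. The difference between the sexes in the log2 fold change was tested as an interaction, but the genes were picked for this separation in the same livers, so the p-values are not independent of that choice. It was 0.97 (SE 0.19) for Acot12, with an adjusted p of 0.194 in edgeR and 0.000501 in DESeq2. For Slc27a1 it was 1.69 (SE 0.24), with 0.0997 in edgeR and 6.92e-07 in DESeq2. Fgf21, a fasting hormone of the liver, had 1.98 (SE 0.46), with adjusted p-values of 0.277 in edgeR and 0.0134 in DESeq2, at levels of 1.06 to 3.00 CPM by group. Acadm, the medium-chain acyl-CoA dehydrogenase, had 1.27 (SE 0.33), with 0.305 in edgeR and 0.0340 in DESeq2. Hadhb, a subunit of the mitochondrial trifunctional protein, had 1.03 (SE 0.28), with 0.312 in edgeR and 0.0512 in DESeq2. In edgeR none of the 5 passed the threshold, and over all genes edgeR called 0 genes for the interaction (959 at an unadjusted p under 0.05) and DESeq2 called 122.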

How the results depend on the processing

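With 1 liver left out the median log2 fold change of the fitted members was 1.42 to 1.76 in females, -0.15 to 0.13 in males (0.05 with all livers), and between the sexes 0.43 to 0.86 on chow and 1.71 to 2.22 on statin. Between the sexes on chow the lowest value, 0.40 against 0.69, came with the stricter filter, which left 3 members (Acot1, Acot3 and Acot4), and limma gave 0.43. Of the other thioesterases, 1 was called in females with DESeq2, DESeq2's size factors, no filter, the stricter filter and limma, and 0 to 2 with a liver left out. The synthetase list had 3 calls with DESeq2 or no filter, 0 with the 2 groups alone, and 0 to 1 with a liver left out. The PPAR-alpha list had 12 calls with DESeq2, 8 with no filter, 0 with library size alone or the 2 groups alone, and 0 to 8 with a liver left out, 8 being without female statin replicate 2. Over all genes in females the 12 calls became 270 with DESeq2, 148 with no filter, 0 with the 2 groups alone and 0 to 75 with a liver left out, and on chow the 1250 became 1946, 1511, 2151 and 635 to 1586. In males all alternatives except DESeq2 (4) gave 0. The cause of these changes was not tested. The replicate numbers do not pair the livers: same-numbered livers are different mice, their deviations had a mean correlation of -0.08 over 18 pairs, and 2 of 12 livers correlated best with their own number. With the number as a block, 5 genes were called in females and 901 on chow, and 0 of the synthetase list and 0 of the PPAR-alpha list.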
